A study of Mus musculus with 44 samples.

Results

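The normal gastric corpus mucosa of wild type mice given vehicle (WT/PEG) was described from 11 of the 44 RNA sequencing libraries of the study, chosen by group label alone, without use of any measured value. The mice were wild type on the BALB/c background, were given polyethylene glycol 300 (PEG) alone by repeated subcutaneous injection, and were 13 months old when biopsies of the ventral corpus mucosa were taken. The other libraries came from H+/K+ATPase beta subunit knockout mice and from mice given the gastrin receptor antagonist netazepide (NTZ), and they were not analysed here. The libraries are called W1 to W11 by their replicate number. Their labels carry 10 distinct animal numbers, since W4 and W8 share one, and the sources do not say whether these came from 1 animal or 2. All 4 genes that mark oxyntic mucosa were abundant in every library: pepsinogen C (Pgc), intrinsic factor (Gif) and both subunits of the proton pump (Atp4a and Atp4b).

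The oxyntic glands of the corpus hold chief cells, which secrete digestive proenzymes, parietal cells, which secrete acid through the proton pump, mucous neck cells, and endocrine cells that make ghrelin, somatostatin and histamine. Surface mucous (pit) cells line the lumen and secrete mucin, trefoil peptide and gastrokines. In the mouse the glandular corpus meets a keratinized squamous forestomach at one border and the gastrin-producing antrum at the other. In bulk RNA, fewer cells of a type and less RNA per cell cannot be told apart.

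The libraries held between 7881440 and 19277190 estimated counts, with a median of 12285692, and between 15113 and 16279 genes had at least 3 counts. A level below 3 counts, which is 0.156 to 0.381 CPM (each library's counts scaled to a common total) depending on the library, was read as not detected. Such floors cover counting error only. W1 stood apart in several lineages and W2, W8, W9 and W11 in squamous genes, as described further on. Levels between genes are given per transcript length, as TPM (length-scaled counts brought to the same total in every library), and levels of 1 gene between libraries as CPM after TMM normalization, which scales out differences in library composition.

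The mRNA pool was concentrated on few secreted products. The 6 leading genes, Pgc, Pla2g1b, Clps, Gkn2, Gkn1 and Tff1, together made up 31.2% to 44.6% of TPM, with a median of 39.0%. Between 10 and 21 genes, with a median of 11, held 50% of TPM, and between 1823 and 2795 genes held 90%. W1 needed the most genes at both marks and was the least concentrated. Between 48 and 64 genes reached 1000 TPM in a library. Among the 20 genes with the highest mean TPM, 9 were encoded by the mitochondrial genome, 3 were in the list of chief cell products and 4 in the list of pit cell products.

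**Figure D1:**
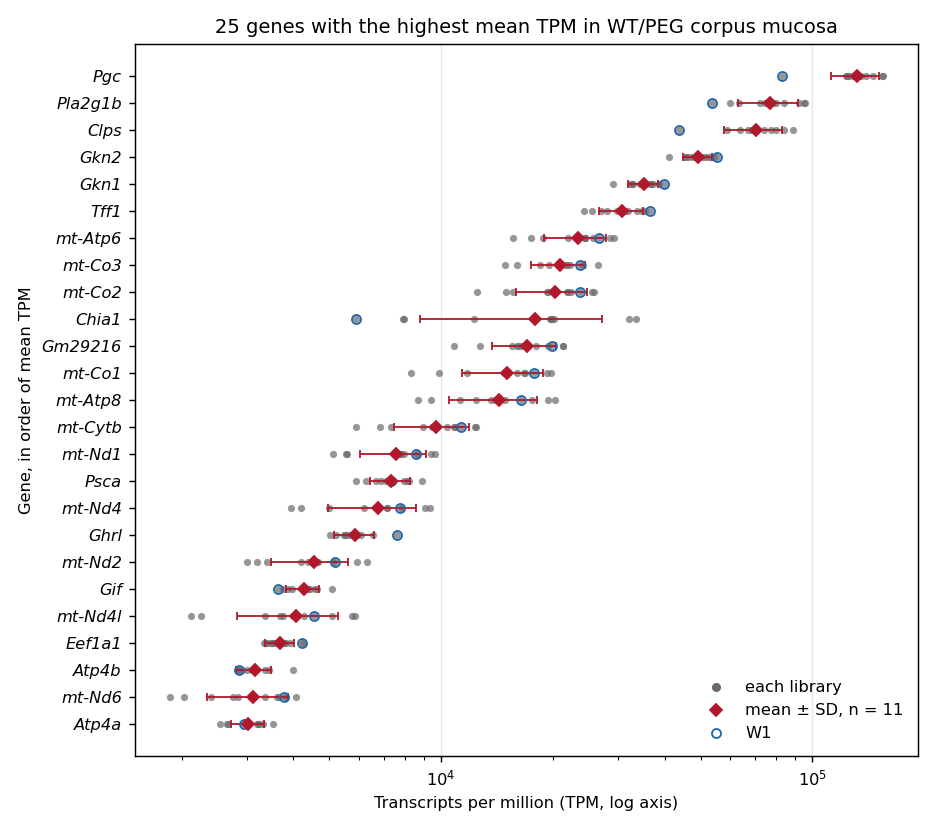
TPM (log axis) of the 25 genes with the highest mean TPM, with 1 grey point per WT/PEG library, diamonds for the mean and bars for the SD (n = 11), and a ring around W1. Pgc led with a mean of 131689 TPM, W1 was the lowest for Pgc, Pla2g1b, Clps and Chia1, and Chia1 had the widest spread among the nuclear genes drawn.

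Chief cell products held the largest share among the epithelial lists. The 8 listed genes summed to 15.4% ± 2.62 of TPM (SD, n = 11), and Pgc alone made up 85.4% of that sum. Pgc, the zymogen of gastricsin, is on chromosome 17 (47726842 to 47734482, plus strand, GRCm38) and had 131689 ± 19662 TPM (SD, n = 11). Its lowest library was W1, at 83163 TPM, its median 133616 TPM and its highest W10, at 154982 TPM, so that W1 lay far below the rest. Without W1 the chief list held 16.03% of TPM. Chia1, the acidic chitinase, followed at 17908 ± 9154 TPM, and Gif, which binds vitamin B12, at 4261 ± 432 TPM. The remaining members were far lower, with Pga5 (pepsinogen A) at 87.5 ± 30.5 TPM and Bhlha15, the transcription factor MIST1 of secretory cells, at 24.7 ± 4.61 TPM.

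A phospholipase and a lipase cofactor of pancreatic type ranked just after Pgc in TPM. Pla2g1b, the secreted phospholipase A2 first known from pancreas, had 77174 ± 14126 TPM, and Clps, the cofactor of pancreatic lipase, had 70577 ± 12579 TPM (SD, n = 11 each). Both genes were lowest in W1, at 53675 TPM and 43736 TPM, as Pgc was. Of the 16 genes in the pancreas list Clps made up 99.8% of the sum. Try4, a trypsinogen, had 56.8 ± 18.6 TPM. Cel, the bile salt dependent lipase, had 33.8 ± 10.8 TPM and the elastase gene Cela1 27.3 ± 7.71 TPM. Of the 16, 8 reached a mean of 1 CPM and 4 stayed below 3 counts in all 11 libraries, namely Cpa1, Ins1 and Ins2, which had no count, and Prss2. The level of Pla2g1b rests on its short transcripts: with a shorter effective length it was 101205 TPM, and as a share of estimated counts, which ignores length, it was 2.86%, rank 5, while Clps at 3.497% was rank 3.

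Pit cell products were the next most abundant epithelial list. The 11 listed genes summed to 12.7% ± 1.19 of TPM. Between libraries their sum ranged from 85828 CPM in W2 through a median of 102444 to 121649 CPM in W10. Gkn2 and Gkn1, the gastrokines of the mucosal surface, had 49348 ± 4387 and 35113 ± 3207 TPM. Tff1, the trefoil peptide of pit cells, had 30766 ± 4198 TPM, and Psca, a surface antigen of this lineage, 7338 ± 894 TPM. Muc5ac, the gel-forming surface mucin, had 510 ± 178 TPM. Gkn2 had a coefficient of variation of 9.69% on the CPM scale against 21.5% for Pgc.

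Mucous neck products were scarcer by far. The 5 genes summed to 1793 ± 421 TPM, of which 91.2% was Tff2, the trefoil peptide of neck cells, at 1635 ± 374 TPM. The neck mucin Muc6 had 32.001 ± 16.1 TPM and Gkn3 26.1 ± 26.99 TPM. Gkn3 therefore had an SD as large as its mean, with 55.2 CPM in W1, 37.4 CPM in W5 and 3.22 to 16.7 CPM in the remaining libraries.

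Parietal cell genes held a small share. The 16 genes summed to 0.881% ± 0.0706 of TPM. Between libraries their sum ranged from 13010 CPM in W1 through a median of 16324 to 19916 CPM in W3. Atp4b, the beta subunit of the pump, had 3143 ± 344 TPM, and Atp4a, its catalytic subunit, had 3025 ± 307 TPM, so that the paired subunits had about the same level per length. Atp4a ranged from 2541 to 3524 TPM with a median of 3001, and Atp4b from 2839 to 3979 with a median of 3098. Carbonic anhydrase Car2 followed at 859 ± 73.4 TPM and creatine kinase Ckb at 364 ± 54.4 TPM. The potassium channel subunit Kcne2 had 136 ± 14.6 TPM and the histamine receptor Hrh2 8.12 ± 1.04 TPM.

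Endocrine products were led by ghrelin. Ghrl, the appetite hormone, made up 85.5% of the 16 listed genes at 5871 ± 713 TPM, and no library was below 5024 TPM. Sst, the inhibitory hormone somatostatin, had 625 ± 135 TPM and Chga, the granule protein chromogranin A, 289 ± 63.9 TPM. The histamine-making enzyme Hdc had 12.3 ± 4.99 TPM and the gastrin receptor Cckbr 2.66 ± 0.752 TPM. Pyy, a gut hormone of more distal bowel, was below 3 counts in 2 of 11 libraries.

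Mitochondrially encoded mRNAs made up most of the remaining leading genes. The 13 mitochondrially encoded mRNAs held 13.4% ± 2.87 of TPM, from 8.58% in W9 to 17.4% in W2. mt-Atp6 led them at 23373 ± 4446 TPM, followed by mt-Co3 at 20885 ± 3464 and mt-Co2 at 20273 ± 4384 TPM. The nuclear genes of oxidative phosphorylation summed to 26993 ± 2620 TPM over 77 genes and the cytosolic ribosomal proteins to 28166 ± 3329 TPM over 78. Gm29216, a nuclear pseudogene on chromosome 1 that copies mitochondrial sequence, was listed at 17067 ± 3344 TPM, and its reads and those of the mitochondrial genes cannot be told apart with certainty. mt-Atp8, only 204 bases long, moved from 14343 to 40796 TPM with the shorter effective length, so its place in the order depends on the length used.

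Genes of the endoplasmic reticulum, where secreted proteins fold, were moderately abundant. The 21 listed genes summed to 4730 ± 524 TPM and were led by Pdia2, a disulfide isomerase of exocrine cells, at 1142 ± 171.7 TPM. The chaperone Calr had 472 ± 63.8 TPM, the isomerase P4hb 468 ± 59.6 TPM and Agr2, which folds mucins, 466 ± 146.8 TPM. Iron and metal binding genes were abundant as well: the ferritin chains Fth1 and Ftl1 had 1387 ± 171.8 and 1293 ± 152 TPM, and the metallothionein Mt1 320 ± 70.9 TPM.

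Of the supporting tissue, smooth muscle genes stood highest. The 11 smooth muscle genes summed to 2397 ± 472 TPM, with Acta2, the smooth muscle actin, at 490 ± 95.2 TPM. Fibroblast genes summed to 343 ± 88.4 TPM, endothelial genes to 111.03 ± 18.8 TPM, and genes of dividing cells to 136 ± 16.9 TPM. Immune transcripts were low: B and plasma cell genes summed to 340 ± 173.4 TPM, myeloid genes to 127 ± 36.9 TPM, mast cell genes to 35.8 ± 13.5 TPM, and T and NK cell genes to 7.54 ± 4.14 TPM. Hemoglobin and other red cell genes summed to 519 ± 192 TPM. The intestinal transcription factors Cdx1 and Cdx2 stayed below 3 counts in all 11 libraries, while the apolipoprotein Apoa1 from the same list had 1297 ± 212 TPM. Hamp2, a hepcidin paralog, had 422 ± 75.5 TPM, against 1.04 ± 0.549 TPM for Hamp, and reads of these near-identical genes may be split with error.

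**Figure D2:**
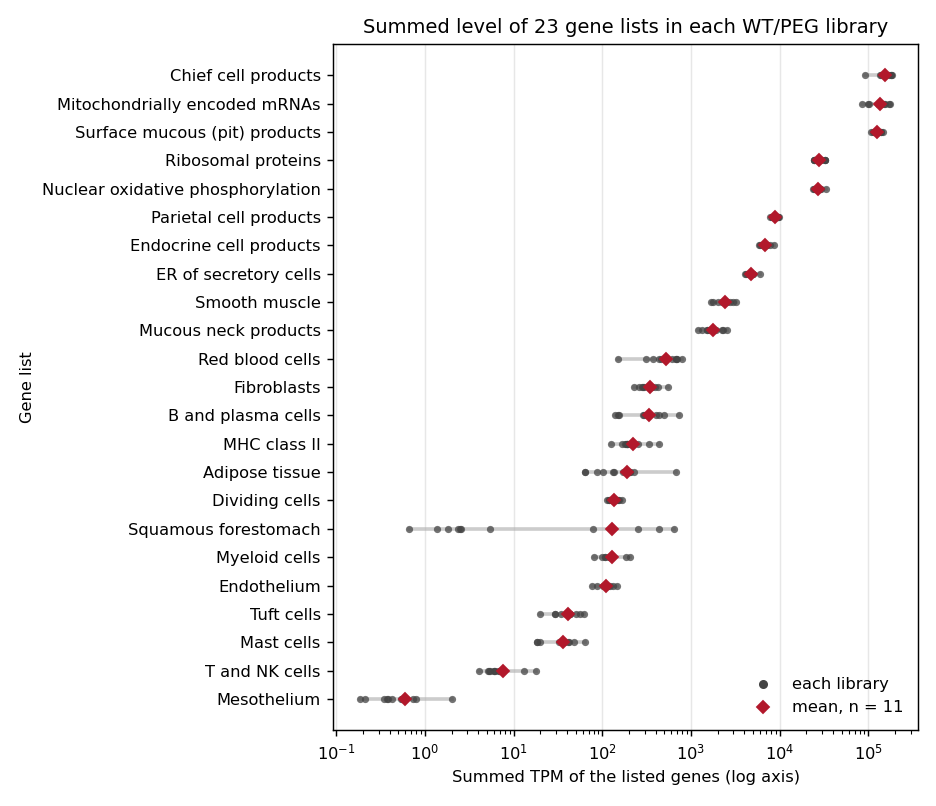
Summed TPM (log axis) of the genes in each of 23 lists, with 1 grey point per WT/PEG library, diamonds for the mean (n = 11) and lines from the lowest to the highest library. Chief, mitochondrial and pit mRNAs lie at or above 85791 TPM in every library, and the squamous list spans from 0.659 to 642 TPM, the widest of the lists drawn.

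Variation between libraries was measured by the biological coefficient of variation (BCV), the spread of a gene's level between libraries beyond counting error, without shrinkage towards other genes. Among 13427 genes with a mean of at least 1 CPM the median BCV was 0.124, and the 5th and 95th percentiles were 0.0186 and 0.373. A BCV of at least 0.5 was reached by 358 genes, 2.67% of those tested, and these are called variable here. This is a description with no test. Of the 358, 294 were protein coding and 46 were pseudogenes. The BCV of 119 of them fell below 0.5 when the library farthest from the median was left out, whereas 239 stayed at or above it. Variation was concentrated on genes of low level: of 1185 genes with a mean of at least 100 CPM, 8 were variable. The 2.67% set beside gene lists further on covers genes of all levels and is not matched to the level of a list.

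**Figure D3:**
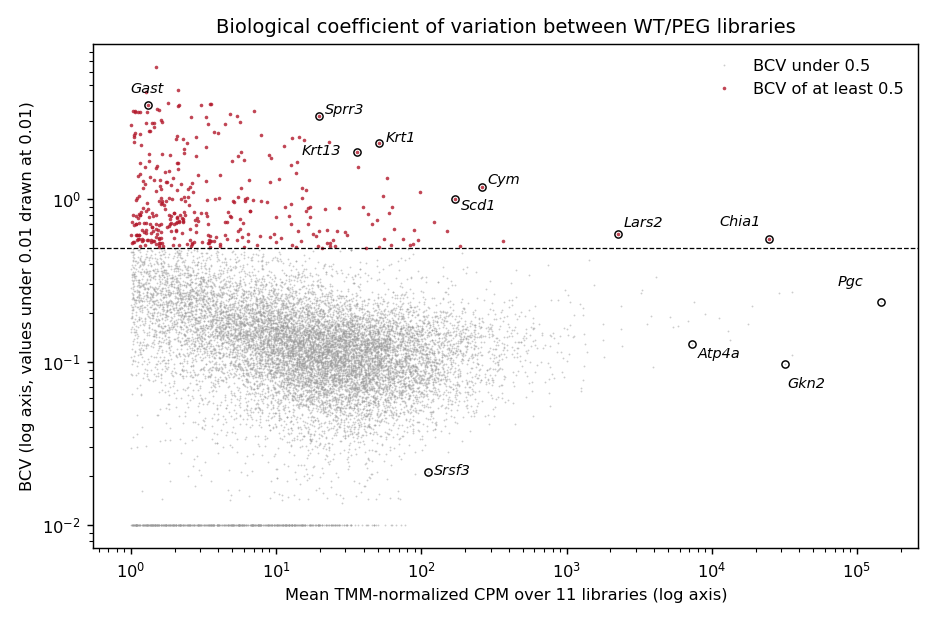
BCV between the 11 WT/PEG libraries (log axis, values under 0.01 drawn at 0.01) against mean CPM (log axis) for 13427 genes, with the 358 genes at or above a BCV of 0.5 in red and some named genes ringed. The red genes crowd at low CPM, Lars2 and Chia1 are variable at high CPM, and Pgc, Gkn2 and Atp4a lie below the dashed line at 0.5.

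None of 16 parietal, 11 pit or 15 tested endocrine genes reached a BCV of 0.5, which is near what 2.67% of all genes gives for lists of this size. Their median BCV was 0.147, 0.188 and 0.173, each above the 0.124 of all genes tested. Nor did any of 12 genes of dividing cells, 11 of smooth muscle, 8 of fibroblasts or 13 of the mitochondrial genome. Of 8 chief cell genes only Chia1 was variable, and of 5 neck genes Muc6 and Gkn3 were, so that both lists lay above the share of all genes. The pit keratin Krt20 lay just outside, at 0.499, with 37.3 to 229 CPM, and the pit mucin Muc5ac had a BCV of 0.332.

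Chia1 was the most abundant variable gene. Its level was 6622 CPM in W1, 9835 in W2 and 10880 in W7, had a median of 25341 and reached 45495 CPM in W9 and 47308 CPM in W6. The range was 7.14-fold, and the BCV of 0.569 fell to 0.483 without W1. The levels formed a series rather than 2 sets, with W3 at 19551 CPM and the other 5 libraries between 24065 and 29043 CPM.

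Cym, chymosin, the milk-clotting protease related to pepsin, varied most among the genes at 100 CPM or more, with a BCV of 1.18. It had 18.2 CPM in W3 and 32.8 CPM in W7, a median of 103.07 CPM, and 464, 647 and 1119 CPM in W5, W6 and W9. The highest library was 61.5-fold above the lowest, and the BCV was 1.06 without W9. Pga5, another pepsin family zymogen, was also highest in W6 and W9, at 172.6 and 158.9 CPM, above 55.0 to 102 CPM in the other 9 libraries, and its BCV was 0.330.

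Muc6 ranged from 57.0 CPM in W3 to 298 CPM in W8, with a median of 213 CPM and a BCV of 0.512, which fell to 0.431 without W3. Its low libraries were W3, W2, W9 and W7, at up to 125 CPM, and the other 7 had at least 157 CPM. Bpifb1, a secreted protein of mucosal surfaces, had 28.4 CPM in W4 and 265 CPM in W9, and Cybrd1, a duodenal ferric reductase, 27.5 CPM in W4 and 375 CPM in W1. Their BCVs were 0.723 and 0.636. Of 12 mucosal defence genes 4 could be tested and 3 were variable, beside 2.67% of all genes: the peroxide-making oxidase Duox2, its maturation factor Duoxa2 and the immunoglobulin receptor Pigr, with 5.08 to 58.9, 0.879 to 12.6 and 5.76 to 36.9 CPM. The BCV of Duox2 fell from 0.624 to 0.491 without W4.

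**Figure D4:**
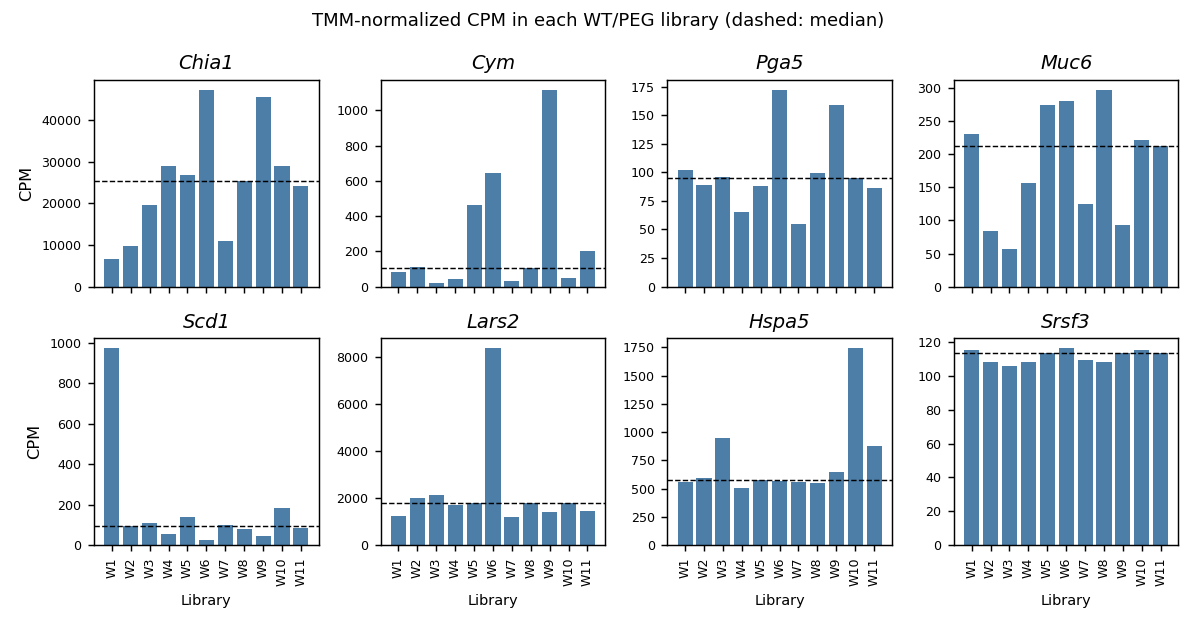
CPM in each of the 11 WT/PEG libraries for 8 genes with a mean of at least 100 CPM, with bars from 0 and a dashed line at the median. Chia1, Cym and Muc6 spread over a series of levels, Scd1, Lars2 and Hspa5 stand out in W1, W6 and W10 respectively, Pga5 is highest in W6 and W9, and Srsf3 is the least variable gene of this level.

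Some abundant genes stood out in 1 library. Lars2, the mitochondrial leucyl-tRNA synthetase, had 8369 CPM in W6 and 1182 to 2124 CPM in the other 10, and its BCV fell from 0.614 to 0.195 without W6. AA474408 did likewise, with 1188 CPM in W6 and 198 to 432 CPM elsewhere, and its BCV fell from 0.553 to 0.230 without W6. Tmem38b, chosen after its values were seen, had 231 CPM in W6 and 27.3 to 35.4 CPM elsewhere. The chaperone Hspa5 of the endoplasmic reticulum had 1743 CPM in W10 and 508 to 948 CPM in the others. Herpud1 and Creld2, which respond to unfolded protein in the same compartment, were highest there too, at 454 and 120.7 CPM against medians of 145 and 31.7, as was the heat shock gene Hspa1b at 115 CPM against a median of 16.2.

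At the other end, 10 genes at 100 CPM or more had the smallest BCV: Srsf3, Clstn1, Nptn, Csnk2a1, Rab7, Ube2z, Arf3, Setd3, D17Wsu92e and Glyr1. Srsf3, a splicing factor, led them with 106 to 116 CPM and a BCV of 0.0213.

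Genes of keratinized squamous epithelium were high in the same 4 libraries. Of 12 listed squamous genes 9 reached a mean of 1 CPM, most of them only through these 4 libraries, so that their being variable followed from the filter. The summed level of the list was 582 CPM in W11, 386 in W8, 242 in W9 and 82.5 in W2, and 1.09 to 5.53 CPM in the other 7. Krt1, a keratin of cornified layers, had 259, 180, 96.9 and 25.7 CPM in these 4 libraries and at most 0.782 CPM in the others. Krt13, a keratin of stratified mucosa, had 182, 93.05, 84.8 and 29.5 CPM against at most 2.81 CPM. Sprr3, a small proline-rich envelope protein, had 110, 49.0, 45.5 and 12.1 CPM against at most 0.351 CPM.

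Of the 358 variable genes, 54 were higher in each of these 4 libraries than in any of the other 7, which is 15.1% of them, beside 0.946% of all genes tested. Such a pattern itself raises the BCV, and most of the 54 reached a mean of 1 CPM only through these 4 libraries. The larger share among variable genes therefore followed from the filter and the BCV threshold and is not read as a result. Only 8 of the 54 were in the list. The remaining 46 included other products of the cornified layer among the 25 genes with the largest BCV: the envelope proteins Hrnr, Lce3f, Lce1a1, Lce3a and Crct1, the protease inhibitors Spink5 and Serpinb3a, the lipoxygenase Alox12b, the calmodulin-like Calm4, the metallothionein Mt4 and the cytokine Il1f5. Of these the inhibitor Spink5 was the most abundant, with up to 33.0 CPM. W4 had 1.95 CPM over the squamous list, so the libraries that share an animal number lay on opposite sides. The part of adjoining forestomach in these values was not tested.

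Adipose genes varied widely, and W1 stood above the other libraries in their sum. Of 9 listed genes 8 were variable, beside 2.67% of all genes, with a median BCV of 0.885. The sum of the list ranged from 73.8 CPM in W6 through a median of 137.2 to 266 CPM in W3 and 607 CPM in W1. Adipoq, the hormone of fat cells, had 0.697 CPM in W6 and 32.5 CPM in W1. Scd1, a desaturase of fat synthesis, had 973 CPM in W1 and 25.3 to 182 CPM in the others, and its BCV fell from 1.01 to 0.529 without W1. The fatty acid synthase Fasn was also highest in W1, at 338 CPM against 82.4 to 151 CPM. Ucp1, which marks brown fat, had 19.9 CPM in W1 and 13.4 CPM in W5 and at most 1.09 CPM elsewhere.

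W1 stood apart in several lineages. Gast, the antral hormone gastrin, had 13.3 CPM there, at most 0.703 CPM in the other 10 libraries, and no count in 7 of them. Pdx1, a transcription factor of antrum and duodenum, was highest there as well, at 4.39 CPM, with 2.46 CPM or less elsewhere. Nkx6-3, chosen after its values were seen, had 9.17 CPM in W1 and 10.4 CPM in W5, and at most 1.23 CPM in the other 9. Glycam1, which had the largest BCV of all genes tested at 6.47, had 12.8 CPM in W1, 3.66 CPM in W9 and no count in the other 9. Gast and Glycam1 reached a mean of 1 CPM only through W1, so that their being variable followed from the filter. In the same library the chief cell sum was lowest at 87621 CPM, against a median of 168728, and the parietal cell sum was lowest at 13010 CPM. Per length the chief sum was lowest in W1 too, at 93024 TPM. The parietal sum per length was lowest in W9, at 7745 TPM, and W1 held the median, 8554 TPM. The pit cell sum was 95941 CPM in W1, below its median, although per length it was the highest of the 11 libraries. The part of adjoining tissue in the values of W1 was not tested.

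Immunoglobulin genes were highest in W9. Igkc, the kappa light chain, had 216 CPM there, a median of 66.6 and 32.8 CPM at the lowest, and Ighm, the heavy chain of IgM, had 88.8 CPM there, 34.5 in W1 and at most 13.0 CPM in the others. Jchain, which joins secreted IgA and IgM, ranged from 9.09 to 51.8 CPM. Of 10 listed B and plasma cell genes 5 could be tested and 4 were variable, beside 2.67% of all genes, though Igkc and Jchain fell to a BCV of 0.414 and 0.463 without W9. Igha, the IgA heavy chain, was just outside at a BCV of 0.494. None of 7 genes of MHC class II presentation was variable, although all 7 had a BCV above the overall median and Cd74, the invariant chain, ranged from 61.8 to 207 CPM.

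**Figure D5:**
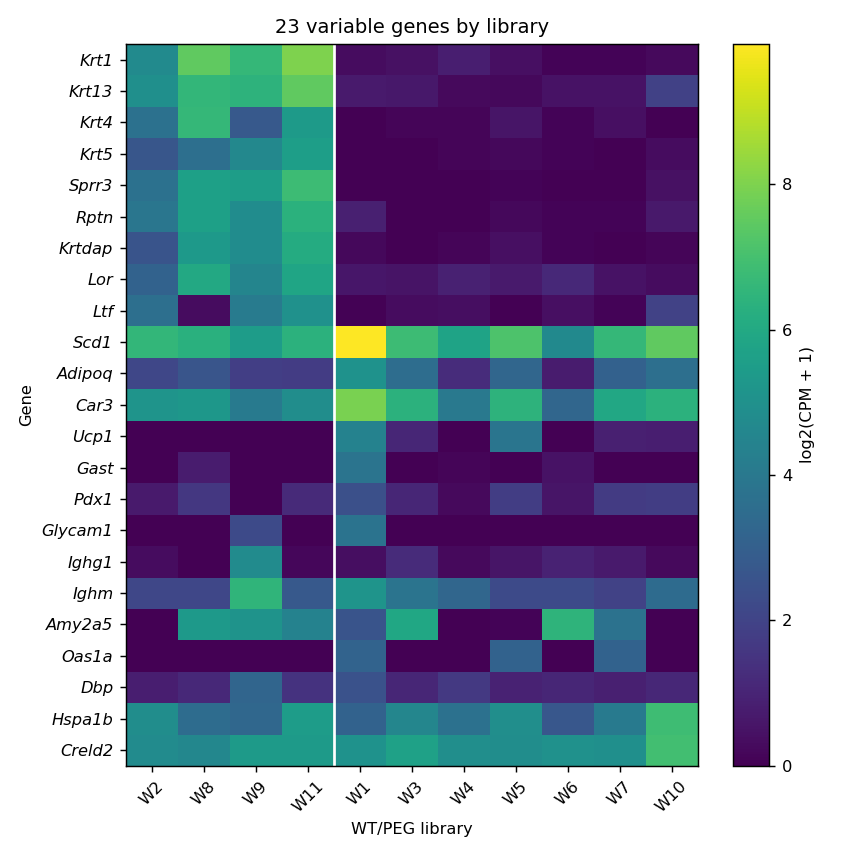
Level as log2(CPM + 1) of 23 variable genes (rows) in each WT/PEG library (columns), with the 4 libraries of highest squamous sum left of the white line. Squamous genes from Krt1 to Lor are bright only left of the line, Adipoq, Car3, Ucp1 and Gast are brightest in W1, Ighg1 and Ighm in W9, and Hspa1b and Creld2 in W10.

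Stress and immediate-early genes, which respond fast to stimuli, were low to moderate in level. The 13 immediate-early genes summed to 262 ± 52.7 TPM, led by Btg2 at 57.5 ± 10.2 TPM, Fos at 39.5 ± 17.5 TPM and Jun at 37.7 ± 8.34 TPM, and 1 of 12 tested, Fosb, was variable, with a BCV of 0.539 that fell to 0.317 without W6. Fos ranged from 30.4 CPM in W6 to 107 CPM in W8, with a median of 57.7 CPM. The 8 heat shock genes summed to 744 ± 143.2 TPM, of which Hspa8, the constitutive chaperone, held 48.5%. Of the 8, Hspa1a and Hspa1b, the inducible and near-identical pair, were variable. They had 3.03 to 44.2 and 5.50 to 114.8 CPM, and both were highest in W10. Interferon-stimulated genes summed to 35.7 ± 14.8 TPM, and 1 of 11, Isg15, was variable. It had 0.751 CPM in W11 and 5.76 and 5.69 CPM in W1 and W9, and its BCV fell from 0.565 to 0.486 without W1. Beside 2.67% of all genes, 8.33% of the tested immediate-early, 25% of the heat shock and 9.09% of the interferon-stimulated genes were variable. The median BCV of these lists was 0.234, 0.237 and 0.435, each above the 0.124 of all genes tested.

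Genes of the circadian clock were of low level. The clock runs as a loop in which Arntl (BMAL1) with Clock or Npas2 activates the Per, Cry, Nr1d and Dbp genes through E-boxes. The Per, Cry and Nr1d products repress the loop in turn. The 9 tested genes of the Per and Dbp arm had a median BCV of 0.346 and the 5 listed with Arntl 0.147. The median of all genes tested was 0.124. Of the 9 genes 1 was variable, beside 2.67% of all genes. This was Dbp, an output transcription factor, with a BCV of 0.796. It had 8.48 CPM in W9, 4.64 in W1, 2.15 in W4 and 0.794 to 1.75 CPM in the other 8. The repressors Nr1d1 and Nr1d2 and the Dbp paralog Tef were also highest in W9 and W1, at 23.1 and 26.3, 39.99 and 34.5, and 37.001 and 26.1 CPM. Arntl was lowest in W9, at 15.9 CPM, against 20.03 to 25.1 CPM in the other 10. Per1, in contrast, was highest in W10 and W11, at 21.9 and 21.0 CPM, and lowest in W1, at 5.71 CPM.

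The E-box CACGTG, which reads the same on both strands, was searched in the 250 bases before each gene start of the RefSeq promoter table (GRCm38.p6). It was found in 4 of the 9 genes of the Per and Dbp arm present there (Per1, Tef, Ciart and Bhlhe41) and in 1 of 5 genes listed with Arntl (Cry1), beside 6.86% of all 27025 genes of the table. Dbp had no match in this window, which says only that these letters are not in it. The 8-base motif TTATGTAA, searched on both strands and not overlapping the E-box, was found in Per3, beside 0.977% of all genes. Tef had an E-box 127 bases before one of its starts and 138 bases before another. Stretches that overlap an annotated transcript of the genes printed were left out, and Bhlhe41 was not among those genes. The stretches around E-boxes of 3 genes, with the motif in capitals, are shown as examples from the arm that held the variable gene Dbp. They lie at chr11:69098763-69098798 on the plus strand for Per1, chr15:81811256-81811291 on the plus strand for Tef, and chr3:95882257-95882364 on the minus strand for Ciart.
Per1: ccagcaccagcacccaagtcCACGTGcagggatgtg
Tef: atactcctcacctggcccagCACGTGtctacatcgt
Ciart: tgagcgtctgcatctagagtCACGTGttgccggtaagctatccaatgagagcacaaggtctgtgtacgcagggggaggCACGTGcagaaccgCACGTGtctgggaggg

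Some genes lay at separate levels, meaning a gap of at least 2 on the log2(CPM + 1) scale with at least 3 libraries on each side. This was seen for 19 genes, 0.142% of those tested. In 6 of them, Krt1, Sprr3, Rptn, Krt13, Krt5 and Krt4, the high libraries were the 4 of the squamous set. Another 3, the cornified-layer genes Krt10, Krtdap and Asprv1, were high in W8, W9 and W11, with W2 next at 10.97, 5.01 and 5.51 CPM and short of the gap. Of the 13 outside those 6, 8 were protein coding and the rest were pseudogenes, led by Gm6166 with a gap of 4.71. Oas1a, an interferon-induced oligoadenylate synthetase, had 8.05, 7.71 and 7.59 CPM in W1, W7 and W5 and no count in the other 8, and its neighbour Oas1g had 3.51, 3.74 and 3.95 CPM in the same libraries and at most 0.125 CPM elsewhere. Amy2a5, a pancreatic amylase, had 4.98 to 86.4 CPM in 7 libraries and at most 0.0791 CPM in the other 4. Rpl34 had 9.82 to 10.2 CPM in 3 libraries and 52.3 to 176 CPM in 8. Oas1a, Amy2a5 and Rpl34 have near-identical copies, between which estimated counts can be split with error, so these levels are uncertain.

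Sums of lineage lists were compared over the 11 libraries in 13 pairs by permutation tests of Pearson's r and Spearman's rho (two-sided, 100000 resamples). No pair passed Benjamini-Hochberg adjustment, the smallest adjusted p being 0.239 for r and 0.315 for rho, while at an unadjusted p below 0.05 there were 1 pair by r and 2 by rho. Chief and secretory reticulum genes had r = 0.61 (permutation p = 0.0552, adjusted p = 0.239) and rho = 0.68 (permutation p = 0.0245, adjusted p = 0.315), and r = 0.67 without the 2 libraries farthest from the median. B and plasma cell genes had r = 0.61 with those of MHC class II (permutation p = 0.0439, adjusted p = 0.239) and rho = 0.41 (permutation p = 0.214, adjusted p = 0.848). Without the 2 farthest r was 0.27, so that the relation of these sums rested on those libraries. With the mean of log2 CPM of the members in place of the sum, r was 0.87 over all 11 libraries (permutation test, adjusted p = 0.0541). Chief and parietal sums had r = 0.54 (permutation p = 0.0953, adjusted p = 0.248), rho = 0.23 (permutation p = 0.502, adjusted p = 0.848) and r = 0.05 without W1 and W6. Pit and neck sums had r = 0.55 (permutation p = 0.0832, adjusted p = 0.248), rho = 0.62 (permutation p = 0.0484, adjusted p = 0.315) and r = 0.41 without the 2 farthest. When libraries were scaled by total count only, without TMM, chief and secretory reticulum genes had r = 0.23 and chief and parietal sums r = -0.05. With that scaling r was 0.61 for B and plasma cell with MHC class II genes and 0.62 for pit and neck sums. Of 8 lists tested against the total count, none passed adjustment or an unadjusted p below 0.05, by either coefficient.

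The first principal component of log2 CPM held 30.2% of the variance and the second 12.4%. Its positive end was led by Krt1, Sprr3, Rptn, Krt13, Krtdap, Asprv1, Spink5, Krt4, Krt5 and Serpinb12, and its negative end by Ucp1, Rpl17-ps10, Rcn3, Rpl34-ps1, Oas1a, Bglap2, Gemin4, Gm20721, Fndc10 and Zfp969. The 4 libraries of the squamous set lay at 15.1 to 42.7 on this axis, and the other 7 between -30.3 and -7.55. W4 and W8 correlated at r = 0.959 over genes, rank 46 of 55 pairs of libraries. Genes are not independent replicates, and this r is a description. W8 ranked 34 to 54 with all 7 libraries outside the squamous set, W4 among them, and 2 to 29 with the others of that set. Whether W4 and W8 came from 1 animal was not tested. Between these libraries Krt1 differed most, with 0.782 CPM in W4 and 180 CPM in W8.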

How the data were processed

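The authors sequenced polyA-selected RNA of corpus mucosa biopsies (TruSeq Stranded mRNA, single reads of 75 cycles) and deposited estimated counts per GRCm38 transcript, made per the labels with kallisto 0.42.4, which splits reads among similar transcripts. Depth was 7881440 to 19277190 estimated counts per library. Here, 92372 of 94080 deposited transcripts were paired with a gene of GENCODE vM21 and summed per gene, and TPM was computed from annotated transcript lengths. Counts were rounded and TMM-normalized in edgeR 4.0.16 (R 4.3.3). BCV is the square root of the gene-wise dispersion of an intercept-only edgeR fit without shrinkage (prior df 0), over genes with a mean of at least 1 CPM; the step was tested on simulated data. No groups were compared, so p-values come only from permutation of library sums over lists (SciPy 1.17.1). They test the association of list sums with each other or with the total count, over libraries whose spread may be in part technical. W4 and W8 were used as separate units although they share an animal number. With W4 and W8 summed, 0 pairs of lists passed adjustment. Genes were named by rule: the 20 highest in TPM, the 4 highest per list, the 25 of largest BCV, the 15 most and 10 least variable at 100 CPM or more, the 15 widest gaps and the 10 leading loadings at each end of the first component. Further genes named in the text were chosen after their values were seen. The members, lists and rules were chosen with earlier results of these data known. Alternatives covered transcript length, denominator, normalization, filters, dispersion estimates, thresholds and left-out libraries. All columns of per-sample values in the table were mapped to a sample (0 were not).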

Additional observations from a re-analysis of the deposited data

Results flagged for a closer look

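Transcripts that could not be paired with a gene of the annotation were left out of every sum, and they held 0.329% to 0.411% of the estimated counts of a library, the highest share being 0.411% in W6. They are named here as signal outside the measurements described, and their identity was not analysed. With 11 libraries in the group, single high or low libraries were not tested as outliers.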

How the results depend on the processing

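With 200 bases taken off each transcript length, the mean shares of TPM were 12.8% for chief and 0.697% for parietal products. Without mitochondrially encoded genes and their nuclear copies they were 18.2% for chief, 1.04% for parietal and 14.98% for pit products. As shares of estimated counts they were 17.4% for chief, 1.64% for parietal and 10.04% for pit products, and 63 genes then held 50% in the median library. On that scale some other shares moved by over 1.5 times. Pla2g1b went from 7.72% to 2.86%, Clps from 7.06% to 3.497% and Gkn2 from 4.93% to 3.15%. Endocrine genes went from 0.687% to 0.334%, ribosomal from 2.82% to 1.49% and neck from 0.179% to 0.107%. Leaving out 1 library at a time gave 15.1% to 16.03% for chief, 0.870% to 0.891% for parietal and 12.5% to 12.9% for pit products, and 11 to 11.5 genes at 50% of TPM. The variable genes, 2.67% of 13427 tested, became 1.06% of 10474 at a mean of at least 5 CPM, 25.6% of 21260 without a filter, 0.712% of 12500 with filterByExpr, and 0.976% at a BCV of at least 1; all those at 5 CPM and with filterByExpr were among the 358. Leaving out 1 library gave 2.51% to 2.85%. Leaving out the 4 libraries of highest squamous sum, chosen after the data were seen, gave 322 genes, 233 of them among the 358. Summing W4 and W8 gave 330, and DESeq2 1.42.0 gave 360. The 19 genes at separate levels became 55 with log2(CPM + 0.25), 5 with a gap of at least 3, and 16 to 39 without 1 library, the 39 being without W2; the cause was not tested. Other scalings and dispersion estimates moved neither the count of variable genes nor, where run, that of genes at separate levels by over 1.5 times. No paired analysis was possible because no groups were compared. Depth limits calls below 3 counts, and annotated lengths limit TPM of short transcripts.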
